A study of Mus musculus with 2 samples.

Results

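CpG-rich peaks away from gene starts were examined in ATAC-seq data of EHMT2-dTAG-mcherry mouse embryonic stem cells (mESCs), an assay of open chromatin by cutting with the transposase Tn5. A peak belonged to this set when its summit was more than 2000 bp from the start of every GENCODE gene and transcript and outside every coding sequence, and when its whole mm10 sequence had a GC content of at least 55% and a ratio of observed to expected CpG of at least 0.6. Of the 116782 deposited peaks, 113777 lay on chromosomes 1 to 19, and 982 of these met the rule. The rule used position and sequence and no value of strength. The sequence was taken over the whole called peak, whose extent depends on the signal, so membership is not wholly independent of strength.

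Both samples were EHMT2-dTAG-mcherry cells of a BL6/129 hybrid strain, in which endogenous EHMT2, a histone H3K9 methyltransferase, carries a degron tag. They were grown in serum with LIF on feeder cells and were treated for 24 h with the solvent DMSO alone, which leaves EHMT2 in place. Each of 2 clones gave 50000 cells, and the authors called 1 list of peaks on both clones together. No value below therefore has a spread between clones, no test between conditions could be made, and the intervals given are exact 95% intervals that cover the counting of peaks or fragments only. As a check of the labelled cell type, 6 of 6 genes of pluripotent stem cells (Pou5f1, Sox2, Nanog, Esrrb, Zfp42 and Dppa5a) and 2 of 6 fibroblast genes (Col1a2 and Postn, but not Col1a1, Col3a1, Lum or Dcn) had a peak summit within 500 bp of a protein-coding transcript start. By fold enrichment, defined below, the former ran from 2.83 at Pou5f1 to 15.9 at Zfp42. Col1a2 and Postn had 7.50 and 3.24, within that range, so the lists differed in presence and not clearly in strength. The marker genes were chosen after their values were seen, and the share over all protein-coding starts was not computed. The counts are thus a description and do not test the label.

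CpG islands are stretches of DNA in which the CpG dinucleotide, elsewhere depleted because methylated cytosine is lost by deamination, is kept at a high density. Most mark promoters, and they usually lack DNA methylation and bind proteins with CXXC domains and Polycomb complexes. Islands away from annotated promoters are called orphan islands, and some are promoters of unannotated transcripts or lie beside enhancers of developmental genes. Young transposable elements can also be rich in CpG, such as mouse LINE-1 elements, whose promoters are built of monomers in tandem.

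The 982 members fell into 3 classes by the percent of their bases that are lower case, that is repeat-masked, in the reference genome. There were 427 low-masking members with under 10%, 312 high-masking members with at least 90% and 243 between these limits. The following sequences show the 5 low-masking members of highest fold enrichment, named by the nearest protein-coding start. Each is 201 bases of the mm10 plus strand centred on the summit, with CpG dinucleotides in capitals.
Nr2f1 member, chr13:78163201-78163401: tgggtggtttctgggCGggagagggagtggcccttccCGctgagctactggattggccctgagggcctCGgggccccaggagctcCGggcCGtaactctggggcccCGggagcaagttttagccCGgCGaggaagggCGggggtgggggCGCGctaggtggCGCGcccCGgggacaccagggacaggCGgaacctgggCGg
Klf4 member, chr4:55514861-55515061: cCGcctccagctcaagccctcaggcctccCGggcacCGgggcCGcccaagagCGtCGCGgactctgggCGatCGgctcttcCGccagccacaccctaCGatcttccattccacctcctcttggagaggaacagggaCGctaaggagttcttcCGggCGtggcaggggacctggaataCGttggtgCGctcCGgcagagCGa
Elovl5 member, chr9:77910680-77910880: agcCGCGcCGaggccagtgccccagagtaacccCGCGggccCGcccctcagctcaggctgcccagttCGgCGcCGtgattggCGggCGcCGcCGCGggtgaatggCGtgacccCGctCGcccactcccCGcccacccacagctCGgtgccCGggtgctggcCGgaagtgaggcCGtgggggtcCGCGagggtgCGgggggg
Ccnl1 member, chr3:65974550-65974750: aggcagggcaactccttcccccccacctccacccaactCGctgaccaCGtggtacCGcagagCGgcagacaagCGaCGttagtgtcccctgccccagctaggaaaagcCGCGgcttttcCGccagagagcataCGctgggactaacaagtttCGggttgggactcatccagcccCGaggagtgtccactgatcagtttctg
Antxr2 member, chr5:97935418-97935618: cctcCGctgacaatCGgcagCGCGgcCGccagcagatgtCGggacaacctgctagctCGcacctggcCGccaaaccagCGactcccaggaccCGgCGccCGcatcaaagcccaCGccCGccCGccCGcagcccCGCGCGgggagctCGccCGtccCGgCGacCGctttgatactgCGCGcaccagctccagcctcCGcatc

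These 5 stretches held 16, 18, 25, 12 and 27 CpG dinucleotides in this order. The median over all low-masking members was 15, with quartiles of 11 and 20, against 2 for the other distal peaks and 19 for CpG-rich peaks at starts. The letters GGGCGG, the GC box bound by SP and KLF factors, occurred on either strand in 4 of these 5, all but the Ccnl1 member. The longest stretch that any of these 5 shared with another was 11 bases.

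The next sequences come from 4 of the 5 high-masking members of highest fold enrichment and are shown because they repeat one another, again as 201 bases of the plus strand with CpG in capitals. The groups are defined below by words of 50 bases that members share.
Cadps2 member, group 1, chr6:23480207-23480407: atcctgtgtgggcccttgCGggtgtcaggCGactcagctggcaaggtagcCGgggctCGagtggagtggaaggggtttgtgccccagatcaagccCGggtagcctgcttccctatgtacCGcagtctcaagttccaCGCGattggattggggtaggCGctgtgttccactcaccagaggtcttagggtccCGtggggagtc
Trps1 member, group 1, chr15:51048333-51048533: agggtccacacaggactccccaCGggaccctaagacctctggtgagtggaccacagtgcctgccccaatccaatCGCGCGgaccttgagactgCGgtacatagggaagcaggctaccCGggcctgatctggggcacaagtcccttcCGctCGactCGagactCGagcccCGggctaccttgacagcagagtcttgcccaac
Tfap2b member, group 2, chr1:19799494-19799694: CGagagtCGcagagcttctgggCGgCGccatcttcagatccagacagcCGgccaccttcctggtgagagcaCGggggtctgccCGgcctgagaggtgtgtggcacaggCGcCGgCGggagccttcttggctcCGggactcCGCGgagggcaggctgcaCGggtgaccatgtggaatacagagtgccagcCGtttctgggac
Trib2 member, group 2, chr12:15026045-15026245: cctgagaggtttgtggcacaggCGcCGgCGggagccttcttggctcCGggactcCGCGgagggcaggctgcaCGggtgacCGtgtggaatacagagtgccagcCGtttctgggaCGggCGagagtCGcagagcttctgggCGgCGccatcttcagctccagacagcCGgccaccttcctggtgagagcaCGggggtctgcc

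The Cadps2 and Trps1 members shared an identical stretch of 39 bases on opposite strands, and the Tfap2b and Trib2 members shared 70 bases on the same strand. The 4 sequences held 10, 11, 15 and 16 CpG, and the median over all high-masking members was 13. GGGCGG and AAGATGGCG, the latter a core of the YY1 motif, occurred in the Tfap2b and Trib2 members and in neither of the other 2.

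**Figure D1:**
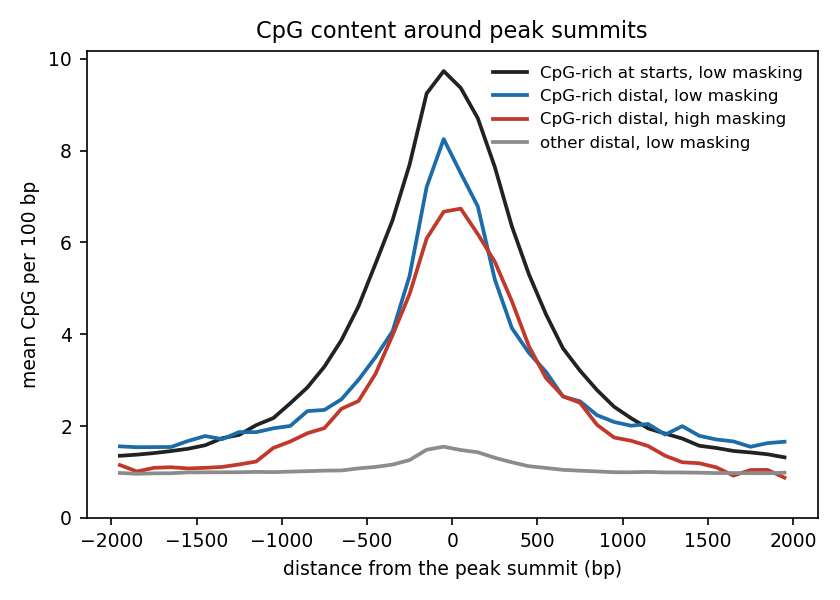
Mean number of CpG dinucleotides per 100 bp against the distance from the peak summit in bp, in bins of 100 bp, for 427 low-masking and 312 high-masking CpG-rich distal peaks, CpG-rich peaks at starts and other distal peaks of low masking. In the bin just before the summit the means are 8.25, 6.67, 9.73 and 1.55 in this order.

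The distribution of CpG around the summits is given as a description. In low-masking members the mean was 8.25 CpG per 100 bp in the bin just before the summit and 1.56 and 1.66 in the bins 1950 bp to either side. CpG-rich peaks within 2000 bp of a start were higher at the summit, with 9.73, and similar at the edges, with 1.35 and 1.32. Other distal peaks of low masking rose only to 1.55 from an edge of 0.978. The rule chose the members by CpG over the whole peak, which contains the summit, so both the height and the position of the maximum follow from it in large part and nothing is read from them.

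CpG-rich distal peaks were stronger than other distal peaks and weaker than CpG-rich peaks at starts. Fold enrichment, the fragment pileup at the summit plus 1 over the local background plus 1, had a median of 5.90 in the members (interval 5.47 to 6.12), with quartiles of 3.70 and 8.40. It was 3.70 in the 83419 other distal peaks and 8.37 in the 10023 CpG-rich peaks within 2000 bp of a start. The number of fragments over the summit, calculated back from the deposited values and pooled over both clones, had medians of 20, 8 and 34 in the same sets. The local background differed in the same order, with medians of 2.27, 1.24 and 3.26 fragments, so the sets lay further apart in fragments than in fold enrichment. The ratio of medians was 2.5 in fragments and 1.60 in fold enrichment against other distal peaks, and 0.588 and 0.705 against CpG-rich peaks at starts. These values depend on where the sequence was measured. With GC and CpG over 150 bp to either side of the summit, 2734 distal peaks qualified, with a median fold enrichment of 7.97. The comparison sets were not recomputed in this way.

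Peaks with −log10 q-values of 10 or more are called strong here. Of the 982 members, 467 or 47.6% (44.4% to 50.7%) were strong. Over all peaks on chromosomes 1 to 19 this share was 21.8%. It was 14.3% for other distal peaks and 75.2% for CpG-rich peaks at starts. Members were also wider, with a median of 809 bp against 533 bp for other distal peaks and 1060 bp for CpG-rich peaks at starts.

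The classes of masking differed in strength. Low-masking members had a median fold enrichment of 4.62 (4.25 to 5.00) and 16 fragments, and 33.3% (28.8% to 37.9%) were strong. High-masking members had a median of 7.50 (7.23 to 7.83) and 28 fragments, and 70.2% (64.8% to 75.2%) were strong. The same classes among the other distal peaks had medians of 3.70 and 4.07 and shares of 10.1% and 29.1%. The members thus exceeded other distal peaks within each class, by a ratio of medians of 1.25 at low and 1.85 at high masking. At high masking the sets were not matched in copy number. The words around the summit occurred a median of 582 times in the genome for members and 35 times for other distal peaks. Reads that match several places equally well were placed among them by chance. The ratio of 1.85 is therefore not a comparison of single places, and the part of copy number in it was not tested.

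**Figure D2:**
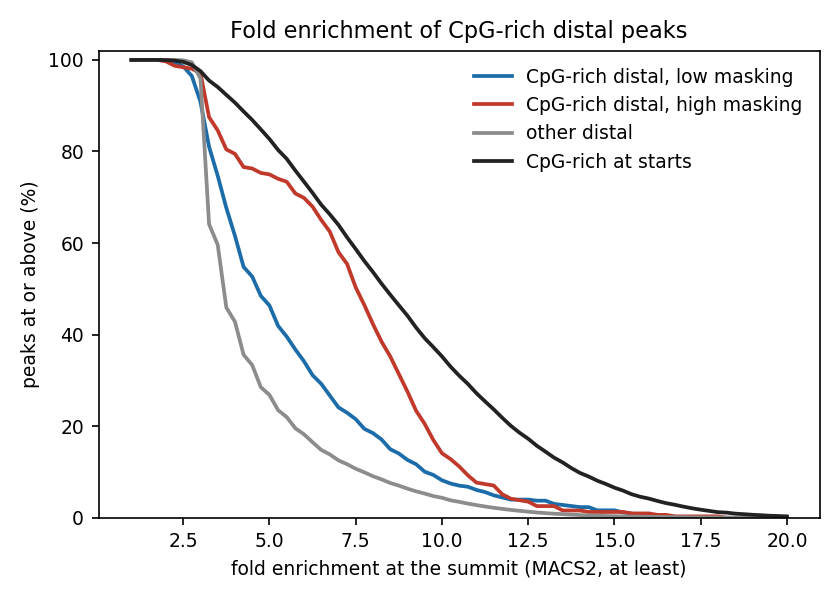
Percent of peaks at or above each MACS2 fold enrichment, for low-masking and high-masking CpG-rich distal peaks, all other distal peaks and all CpG-rich peaks within 2000 bp of a start. The medians are 4.62, 7.50, 3.70 and 8.37 in this order, and the curve of high-masking members falls from near that of the starts to that of low-masking members above a fold enrichment of about 12.

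At GC contents of 55% to 65%, low-masking distal peaks of higher CpG had higher median fold enrichment up to a ratio of 0.8. Among those with a GC content of 55% to 60%, the median fold enrichment was 3.68 in the 836 peaks with an observed to expected CpG under 0.2 and 3.85 in the 1372 peaks from 0.2 to 0.4. It was 4.29 in the 580 peaks from 0.4 to 0.6 and 5.00 in the 159 members from 0.6 to 0.8. The shares of strong peaks were 6.34%, 12.2%, 22.4% and 35.8% in the same bins. Among the 60% to 65% GC peaks, the medians ran from 3.33 in 88 peaks to 4.36 in 128 members over the same bins. The highest CpG bin, from 0.8, held 18 members at 55% to 60% GC, whose median was lower, at 4.39. It was higher, at 5.12, in the 24 members of this bin at 60% to 65% GC. From 65% GC the medians were 4.37 in 60 members from 0.6 to 0.8 and 4.73 in 38 from 0.8. The rise was not confined to the GC range of the members. At 50% to 55% GC, where no peak is a member, the medians were 3.70, 3.88, 4.03 and 4.03 in the 4 bins up to 0.8. The share of strong peaks was 8.47% in the first of these bins and 23.6% in the last. At 45% to 50% GC, also without members, there was no such order, with medians of 3.64, 3.70, 3.70 and 3.35 in the same bins.

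The question of how much CpG-rich distal sequence lay in peaks was asked from the genome. Chromosomes 1 to 19 were cut into tiles of 500 bp, and 3816 tiles met the position and sequence rule of the members. Of these, 2563 or 67.2% (65.6% to 68.7%) overlapped a peak by at least 1 bp, whereas 4.42% of all 4202732 distal tiles did. With the summit of a peak required inside the tile, the share of the 3816 was 42.2%. At low masking the share was 73.3% (685 of 934 tiles), and at high masking 68.9% (1350 of 1960 tiles). A strong peak was overlapped by 28.1% of the low-masking and 60.1% of the high-masking tiles. Neighbouring tiles can lie in 1 peak, so the tiles are not independent of each other.

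**Figure D3:**
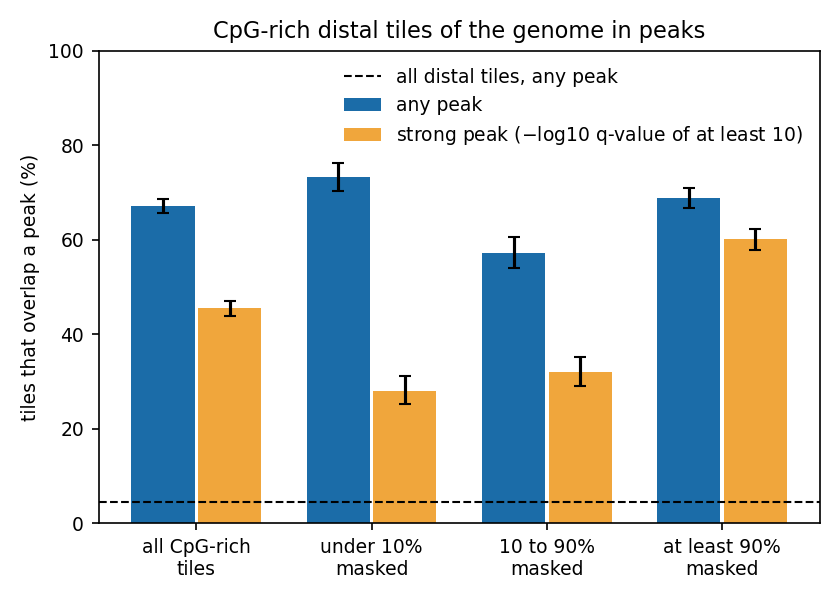
Percent of CpG-rich distal 500 bp tiles that overlap any peak or a strong peak, for all 3816 tiles and by repeat masking, with exact 95% binomial intervals as error bars. The bars for any peak stand at 67.2%, 73.3%, 57.3% and 68.9%, far above the dashed line at 4.42% for all distal tiles.

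Among low-masking tiles, the share in peaks was 66.7% (62.1% to 71.2%) of 436 tiles with an observed to expected CpG of 0.6 to 0.7 and 86.8% (76.4% to 93.8%) of 68 tiles from 0.9 to 1. Low-masking tiles 2000 to 5000 bp from a start were in a peak in 67.1% of cases and those 5000 to 20000 bp away in 77.8%. The intervals of these 2 shares, 61.8% to 72.0% and 73.4% to 81.8%, did not overlap, but neighbouring tiles are not independent. The 249 low-masking tiles in no peak serve below as a comparison for motifs.

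The strongest low-masking member lay at chr13:78162959-78164094, in an intron of Fam172a and 27142 bp downstream of the start of Nr2f1, which encodes the nuclear receptor COUP-TFI. It had 81 fragments over its summit (64.3 to 100.7), a fold enrichment of 16.9 with 71.9 as −log10 q-value. A second one, at chr4:55514622-55515333, lay between genes 16809 bp downstream of the start of Klf4, a pluripotency transcription factor, with 64 fragments (49.3 to 81.7) and a fold enrichment of 16.7. Another member, 118855 bp upstream of Klf4, had 21 fragments and a fold enrichment of 7.14.

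The member 6584 bp upstream of Elovl5, a fatty acid elongase, at chr9:77910107-77911221 had 110 fragments (90.4 to 133) and a fold enrichment of 15.7. The member at chr3:65974284-65975142, 16401 bp upstream of the cyclin gene Ccnl1, had 94 fragments (76.0 to 115) and a fold enrichment of 15.6. The member at chr5:97935112-97935994, in an intron of Antxr2, which encodes an anthrax toxin receptor, had 64 fragments (49.3 to 81.7) and a fold enrichment of 15.4. By fragments the interval of the Elovl5 member lay above those of the Klf4 and Antxr2 members, and the other pairs of intervals overlapped. All 50-base words within 150 bp of these 5 summits occurred once in the genome.

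Members lay mostly outside genes. Of the 982 summits, 604 or 61.5% (58.4% to 64.6%) were between genes, 317 were in introns only and 61 in exons of GENCODE, 38 of the latter in untranslated regions. Other distal peaks lay between genes in 54.1% of cases. The median distance to the nearest start of any kind was 11293.5 bp for the members and 17622 bp for other distal peaks. Low-masking members were nearer to starts, at a median of 7295 bp, and 38.4% of them were within 5000 bp, against 15.3% of other distal peaks of low masking. High-masking members lay at a median of 29653 bp, close to the 29715 bp of other distal peaks of high masking.

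Low-masking members often had neighbours. Another peak summit lay within 10000 bp of 352 of the 427, or 82.4% (78.5% to 85.9%), as against 66.9% of other distal peaks of low masking and 38.5% of high-masking members. Peaks at starts were counted too, and low-masking members lay nearer to starts than other distal peaks. Their share was 90.2% at 2000 to 5000 bp from a start, 84.6% at 5000 to 20000 bp and 61.1% at 20000 to 100000 bp. Within low-masking members, median fold enrichment was 3.88 in the 164 that were 2000 to 5000 bp from a start and 5.16 in the 188 at 5000 to 20000 bp. Their fragments ran the other way, with medians of 18 and 16, and the local background was 2.94 and 2.02.

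Some of these peaks were at transcript starts of another annotation. In RefSeq, 99 of the 427 low-masking members had a transcript start within 2000 bp and 60, or 14.1% (10.9% to 17.7%), within 500 bp. The latter share was 2.03% for other distal peaks of low masking, and it was 0 of 312 for high-masking members, which allows a share of up to 0.962% by the limit of 3 counts. The 60 had a median fold enrichment of 6.29 and 22 fragments, and the 328 with no RefSeq start within 2000 bp had 4.57 and 15. Examples are a member 16 bp from a start of the noncoding D130051D11Rik and 52107 bp upstream of Wnt7b, with a fold enrichment of 14.4, and one 142 bp from a RefSeq start of Pax2, with 3.95.

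Genes of developmental transcription factors were the nearest protein-coding start of a larger share of the members than of other distal peaks. These factors set tissue identity in the embryo, and their genes are known for large CpG islands held by Polycomb complexes in mESCs. The nearest start belonged to this list of 149 genes for 72 members, or 7.33% (5.78% to 9.14%), at 52 genes. Among other distal peaks this was 1.55%. At low masking the shares were 11.2% (8.41% to 14.6%) and 1.93%. The rule chose the members by CpG, and the other distal peaks had a median observed to expected CpG of 0.211. Higher shares near genes with CpG islands can thus follow from the rule in part, here and in the lists below. The same shares in CpG-rich tiles in no peak were not computed. The 72 members had a median fold enrichment of 4.04, and 14 of them were strong. Other distal peaks nearest to the list had a median of 3.70, and 14.1% of them were strong. The strong share was 21.8% of all peaks and 47.6% of all members. Of the 72, 48 were low-masking and 6 high-masking, and the medians of all members of these classes were 4.62 and 7.50.

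**Figure D4:**
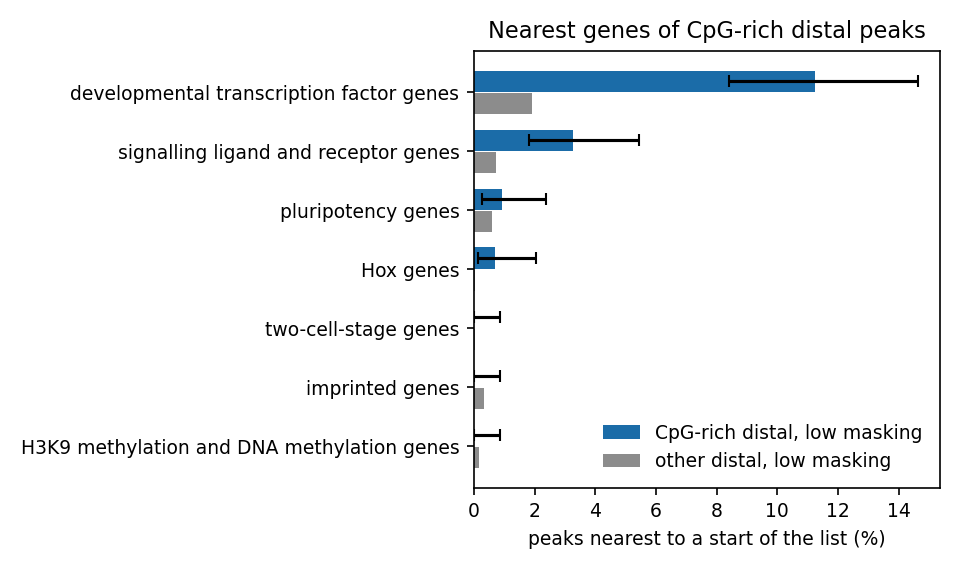
Percent of low-masking CpG-rich distal peaks and of other distal peaks of low masking whose nearest protein-coding start belongs to each of 7 gene lists, with exact 95% binomial intervals for the former. Developmental transcription factor genes stand at 11.2% and 1.93%, and the intervals of the pluripotency and imprinted lists take in the grey bars. The rule chose the members by CpG, so higher shares near genes with CpG islands can follow from it in part.

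Several of these genes had more than 1 member. Pax2, a paired-box factor of kidney and midbrain, was nearest to 4 members at 5364 to 86296 bp upstream, with 8 to 15 fragments and fold enrichments of 3.79 to 5.19. Pax3 and Otx1 had 3 each. The 3 at Otx1, a homeobox gene of the forebrain, had fold enrichments of 2.24 to 2.62 with 18 to 29 fragments. Nr2f2, Sim2 and Ebf3, which also encode transcription factors but are not on the list, were nearest to 3 members each, with fold enrichments of 2.68 to 6.67. Neurog2, a proneural factor, had 1 member upstream with a fold enrichment of 8.70 and 1 downstream with 7.78. Among low-masking members of the list, the strongest was 74419 bp upstream of Sox17, an endoderm factor, with a fold enrichment of 11.3. The strongest of the whole list was the Tfap2b member printed above, a high-masking peak 585715 bp from that start, and 185325 bp from that of Gm38382, the nearest of any kind.

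Signalling ligands and receptors were the nearest protein-coding start of 15 members, or 1.53% (0.857% to 2.51%), against 0.604% of other distal peaks. The 15 include Wnt7b, Wnt10a, Wnt2b, Wnt11 and Wnt3a, which encode WNT ligands, and Dll1, Dll3 and Dll4, which encode Notch ligands. Their fold enrichments ran from 3.24, at 26547 bp from Wnt3a and 152306 bp from Bmp7, to 14.4, at 52107 bp from Wnt7b. Of the 15, 6 were strong. The strong share was 13.3% of other distal peaks nearest to this list and 21.8% of all peaks. Hox genes were nearest to 4 members, or 0.407% (0.111% to 1.04%), against 0.0228% of other distal peaks. The 4 lay 2077, 6287, 7067 and 51703 bp from the starts of Hoxd12, Hoxc12, Hoxa11 and Hoxc4. Their fold enrichments were 3.70 to 4.93, and 0 of the 4 were strong. Of the 19 other distal peaks nearest to Hox genes 10.5% were strong, and of all peaks 21.8%.

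Pluripotency genes were nearest to 4 members, or 0.407% (0.111% to 1.04%), and the interval takes in the 0.573% of other distal peaks. The 4 were the pair given above for Klf4, 1 for Socs3 and 1 for Sall1. The last 2 lay 38233 and 37511 bp from those starts, with fold enrichments of 3.06 and 2.44. Imprinted genes, of which 1 parental copy is silenced, were nearest to 5 members, or 0.509% (0.166% to 1.18%), against 0.306%. The strongest was 6379 bp upstream of Trappc9 at chr15:73067145-73068065, with 94 fragments and a fold enrichment of 15.4. The member 30051 bp upstream of Rasgrf1, whose imprinting is controlled from a region upstream of the gene, had 17 fragments and a fold enrichment of 6.52, and whether it is that region was not analysed. The others were nearest to Sfmbt2, Snrpn and Cdkn1c, 181631, 398299 and 21486 bp away, with 8.82, 8.55 and 7.84. The Sfmbt2 and Snrpn members were 100% and 89.4% masked.

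Genes of the 2-cell stage, which mark 2-cell-like cells, were nearest to 1 member, a high-masking peak 18347 bp upstream of Obox5 with 36 fragments and a fold enrichment of 10.7. Genes of H3K9 methylation and DNA methylation, which include Ehmt2 itself, were nearest to 0 of 982 members, which allows up to 0.305% by the same limit, and 0.158% of other distal peaks were nearest to one of them. The members were therefore too few to separate these lists from other distal peaks.

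The GC box was the commonest of 12 motifs searched as exact letters on both strands within 150 bp of the summit. All letters searched except those of OCT factors, ESRRB and AP-1 hold a CpG, and the rule chose the members by CpG. Higher shares than in other distal peaks or all peaks thus follow from the rule in part. The CpG-rich tiles in no peak are the closer comparison, but their windows were not matched in CpG to those of the members. The latter are centred on the summit, where CpG is highest. GGGCGG occurred in 55.5% (50.6% to 60.3%) of low-masking members. It occurred in 10.9% of other distal peaks of low masking, 74.7% of CpG-rich peaks at starts and 35.3% of the 249 CpG-rich low-masking tiles in no peak. Over all peaks on chromosomes 1 to 19 the share was 19.2%. Low-masking members with these letters had a median fold enrichment of 5.08 (237 members) and those without had 4.14 (190 members).

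**Figure D5:**
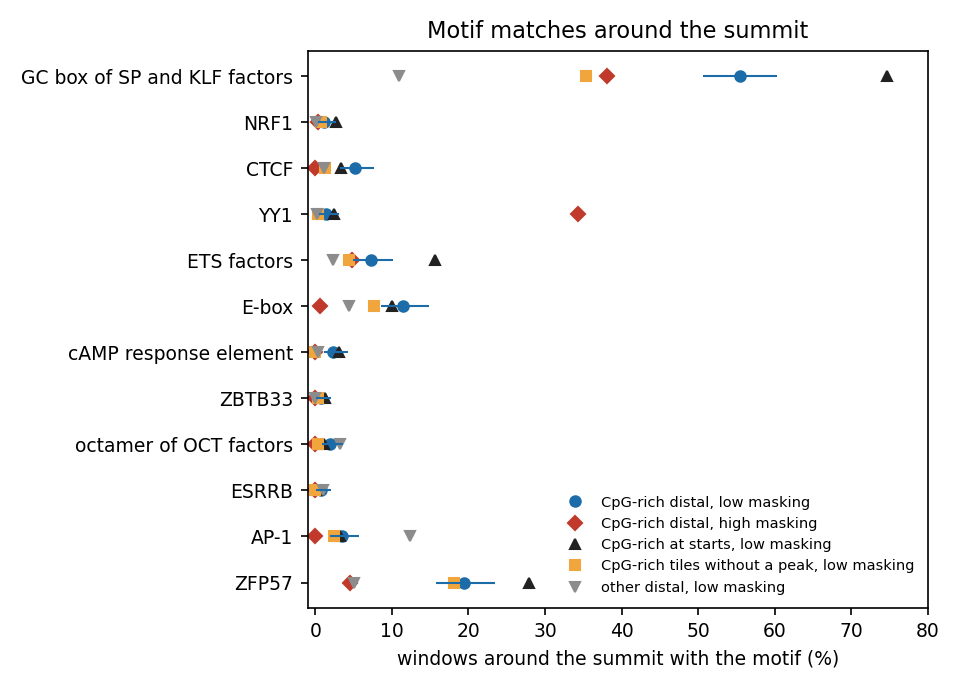
Percent of windows reaching 150 bp to either side of the summit that hold each of 12 motifs, for low-masking and high-masking CpG-rich distal peaks, CpG-rich peaks at starts, CpG-rich tiles in no peak and other distal peaks, with exact 95% binomial intervals for the low-masking members. The GC box, whose letters hold a CpG, differs most between the sets, from 10.9% to 74.7%, and the YY1 letters reach 34.3% in high-masking members.

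AGGGGGCGC, a core of the motif of the insulator protein CTCF, occurred in 22 low-masking members, or 5.15% (3.26% to 7.70%). It occurred in 1.20% (0.249% to 3.48%) of the tiles in no peak, an interval that overlaps that of the members. The share was 3.39% in CpG-rich peaks at starts and 1.10% in all peaks. CCGGAAG of ETS factors occurred in 7.26% of low-masking members, 15.7% of CpG-rich peaks at starts and 4.89% of all peaks. In tiles in no peak it was 4.42% (2.23% to 7.77%), which takes in the members' share. The E-box CACGTG occurred in 11.5% (8.61% to 14.9%) of low-masking members, 9.99% of CpG-rich peaks at starts and 5.18% of all peaks. The interval overlaps that of tiles in no peak, 7.63% (4.66% to 11.7%). TGACGTCA, the cAMP response element, occurred in 2.34% (1.13% to 4.26%) of low-masking members and 3.05% of CpG-rich peaks at starts. It occurred in 0% (0% to 1.47%) of tiles in no peak and 0.642% of all peaks. The 10 low-masking members with it had a median fold enrichment of 8.11.

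AP-1 letters were rarer in the members than in other distal peaks, as they were in the other CpG-rich sets. TGANTCA occurred in 3.51% (1.98% to 5.73%) of low-masking members and 12.3% of other distal peaks of low masking. It occurred in 3.20% of CpG-rich peaks at starts and 2.41% (0.889% to 5.17%) of the tiles in no peak. ATGCAAAT, the octamer of OCT factors such as OCT4, occurred in 1.87% (0.812% to 3.66%) of low-masking members and 3.22% of other distal peaks of low masking, and TCAAGGTCA of the nuclear receptor ESRRB in 0.703% (0.145% to 2.04%) and 1.03%. For these 2 pluripotency factors the interval of the members takes in the share of the other peaks. TGCCGC, the letters bound by the imprinting factor ZFP57 when methylated, occurred in 19.4% of low-masking members, 18.1% of the tiles in no peak and 7.62% of all peaks. GCGCATGCG of NRF1 and TCTCGCGAG of ZBTB33 occurred in 1.17% and 0.703% of low-masking members. In the tiles in no peak they occurred in 0.803% and 0.402%, and in all peaks in 0.450% and 0.144%. A match of letters is a description and not a bound site, and GGGCGG shares its letters in part with AGGGGGCGC.

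High-masking members were copies of few sequences. The median of the numbers of times their 50-base words occur in the genome was 582, against 1 for low-masking members, and 231 of the 312 were over 100. Reads that match several places equally well were put at 1 of them by chance, so fragments at members with several copies are shared among them, and such a value is not that of 1 copy. In 12 of the 312 the median was 1. Members that shared a 50-base word within 150 bp of the summit were joined, which gave 17 groups, 8 of them single members that shared no word with another. Of the 17, 6 had at least 5 members and held 296 of the 312. Groups 1 and 2 held 156 and 96 members, both on 18 chromosomes. The reference used here gives no repeat family, so the groups were not named.

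Most members of groups 1 and 2 matched themselves best at a shift near 200 bases. When the 500 bases to either side of a summit were compared with themselves at shifts of 100 to 400 bases, 143 of the 156 members of group 1 matched best at 208 bases, with a median of 81.1% identical bases over the group at the best shift and at least 60% in 129. In group 2 the commonest shift was 206 bases, the best one for 41 of the 96, and 79 of the 96 had theirs between 200 and 220 bases. The match was lower there, with a median of 64.1% and at least 60% in 52 of the 96. The Trps1 member shows the unit of group 1 in the following pair of neighbours, each 208 bases of the plus strand of mm10. Here capitals mark the 2 bases at which the units differ, so 206 of 208 are identical.
Trps1 member, unit 1, chr15:51048433-51048640: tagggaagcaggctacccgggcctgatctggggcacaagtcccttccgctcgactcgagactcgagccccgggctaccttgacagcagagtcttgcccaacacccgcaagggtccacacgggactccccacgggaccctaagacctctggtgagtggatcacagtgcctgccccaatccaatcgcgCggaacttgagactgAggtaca
Trps1 member, unit 2, chr15:51048641-51048848: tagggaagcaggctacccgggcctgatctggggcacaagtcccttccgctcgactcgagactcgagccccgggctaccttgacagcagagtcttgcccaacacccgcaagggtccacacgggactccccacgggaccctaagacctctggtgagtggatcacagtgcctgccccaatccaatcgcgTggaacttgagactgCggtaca

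Both groups were strong. Group 1 had a median fold enrichment of 7.79, from 1.98 to 18.1, and 82.7% of its members were strong. Group 2 had a median of 8.42, from 3.24 to 16.2, with 78.1% strong. The 2 next groups, with median matches of 30.1% and 29.7%, were weak, with medians of 3.24 in 19 members and 3.41 in 13, and with 0% strong. Groups 5 and 6, of 6 members each, had medians of 9.44 and 7.34 and commonest shifts of 212 and 214 bases.

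The letters of groups 1 and 2 differed. AAGATGGCG occurred in 95 of the 96 windows of group 2 and in 0 of the 156 of group 1, and GGGCGG in 88 and 0. The share of AAGATGGCG among all high-masking members, 34.3%, was thus that of a few repeats, and it was 1.41% in low-masking members and 3.03% in all peaks. CpG-rich high-masking tiles in no peak held AAGATGGCG in 20.3% of cases and GGGCGG in 24.8%. Copies of a repeat are not independent windows.

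The member of highest fold enrichment was in group 1, at chr6:23480090-23481341 in an intron of Cadps2, which encodes a regulator of vesicle release, with 114 fragments (94.04 to 137) and a fold enrichment of 18.1. The Trps1 member, 157970 bp upstream of that gene, had 72 fragments (56.3 to 90.7) and 16.5. The words of these 2 members occurred a median of 1289.5 and 631 times, and 0% were unique. Their fragments are thus not those of 1 place, and the intervals do not cover this. The Tfap2b member had 63 fragments (48.4 to 80.6) and 16.2, and its words occurred a median of 3 times in the genome. This made it one of the least repeated of its group, in which the median over members was 368. The Trib2 member, in an intron of the noncoding 4930448C13Rik, had 41 fragments (29.4 to 55.6) and 15.4, and the one in introns of Olfr56 and 9930111J21Rik2 had 90 fragments (72.4 to 111) and 14.1. In these 2 members the words occurred a median of 594 and 3 times, and 0% were unique.

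The widest members were weak for their length. The peak at chr3:91095143-91100062 was 4920 bp wide and had 33 fragments over its summit and a fold enrichment of 3.43. The next 2 were 3800 bp wide at chr7:41171578-41175377, with 28 fragments and 4.12, and 3731 bp wide at chr4:61684683-61688413, with 30 fragments and 4.01. All 3 were 100% masked and held words that occur over 1000 times, with medians of 1988.5, 1491 and 1932.5. A like array lay 313535 to 321901 bp from 1700008P02Rik, where 4 members had 29 to 33 fragments but fold enrichments of only 2.12 to 3.26.

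Members far from any start were also repeats. The 3 strong members farthest from a start lay 719767 bp away in an intron of Dcc, a netrin receptor gene, 410767 bp from Gm4854 and 362224 bp from Gm20713, in an intron of Gpc5. They had 46, 42 and 56 fragments and fold enrichments of 9.44, 8.53 and 9.56, and the least masked of them was 96.5% masked. Of the 51 members over 100000 bp from a start, 39 were high-masking and 3 low-masking. By protein-coding starts alone, 4 low-masking members were nearest to Ywhaq, a gene of the 14-3-3 family, at 361304 to 613307 bp. The nearest starts of any kind were closer, at 2234, 7938, 122682 and 9969 bp. These members had 11 to 28 fragments and fold enrichments of 5.00 to 10.9, and the strongest lay 88 bp from a RefSeq start of 6030426L16Rik. In these 4, only 39.7% to 86.1% of the words at the summit were unique, unlike most low-masking members. The remaining protein-coding genes nearest to the most members were Trib2 and Galntl6, with 3 high-masking members each and fold enrichments of 8.19 to 15.4 and 6.13 to 11.1. The Trib2 members lay 5501, 89914 and 6340 bp from a start of any kind, and the Galntl6 members 23386, 75437 and 51672 bp.

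The thresholds cut through a continuous range. The member of lowest GC content, at exactly 55% in an intron of Disp1, had 6 fragments and a fold enrichment of 3.24, and the nearest peak left out, at 54.99% near Olfr972, had 14 and 6.70. The member of lowest observed to expected CpG, near Stxbp6, had a ratio of 0.60003 and a fold enrichment of 9.71, and the nearest left out, in Phkb, had 0.5998 and 8.54. The member nearest to a start was 2009 bp from that of Tmem121, with 9.17, and the nearest left out was 1997 bp from that of Dnajc22, with 3.17.

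Chromosome 8 carries more peaks for its length than the others in these data, and 68 of the members were on it. Their median fold enrichment was 4.14, with 19.5 fragments and a local background of 2.92. Without chromosome 8 the median over 914 members was 5.99, and 48.4% were strong. Members made up 0.754% of the peaks of chromosome 8, and from 0.544% on chromosome 16 to 1.23% on chromosome 4 elsewhere. Its part in the results was not tested beyond leaving it out.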

How the data were processed

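ATAC-seq reads of both clones were processed by the authors. Per the study's methods and the submitters' processing notes, technical replicates were merged and reads were trimmed with BBMap, aligned to mm10 with STAR 2.7.10, freed of duplicates with Picard 2.26.0 and of High Signal Regions with SAMtools 1.14, converted with bedtools 2.30.0, shifted for the Tn5 cut and used for peak calling with MACS2 2.2.6 at a q-value threshold of 0.05. The deposited list gives fold enrichment (a ratio), −log10 p-values and q-values at the summit, a score that was not used, and the summit offset. Library totals were not analysed here.

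Fragments over the summit were calculated back from fold enrichment and p-value with the MACS2 formulas. They came out whole, within 0.05, for all 116782 peaks, and 100% were recovered in 4944 simulated peaks. Sequence and masking came from GRCm38.p6, starts from GENCODE vM21 and, separately, RefSeq. Masking is the lower case of the reference, and the masking program is not given in the sources used here. Words of 50 bases were counted on both strands within 150 bp of the summit. Python 3.11.15, NumPy 2.4.6, pandas 2.3.3 and SciPy 1.17.1 were used. The members, the 7 gene lists and the 12 motifs were chosen with earlier results of these data known. The rule for named members took the 5 of highest fold enrichment at low and at high masking, the 3 widest, the 3 strong ones farthest from a start, the 5 genes nearest to the most members (ties by summed fold enrichment), the strongest of each list and those at each threshold. The other members given by name, among them further members of the gene lists, the Pax2 RefSeq start and the genes with 3 members, were chosen after their values were seen, as were the marker genes of the cell type check, the repeat groups and the printed pair of units. No test between samples was possible, so shares carry exact binomial, fragments exact Poisson and medians order-statistic 95% intervals.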

Additional observations from a re-analysis of the deposited data

Results flagged for a closer look

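Chromosome X, outside the rule, held 71 peaks that met the same position and sequence criteria. Their median fold enrichment was 7.65, with 27 fragments, and 45 were high-masking and 11 low-masking. Of the 71, 48 were strong, and the strong share was 21.8% of all peaks on chromosomes 1 to 19 and 47.6% of the members. Chromosome Y held 1 such peak.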

How the results depend on the processing

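No paired analysis was possible because the deposited list pools both clones, so that neither could be left out. Of 76 alternative values, 39 stayed within the interval of the main value (within 1.5 times for the number of members) and 37 moved. The main values were 982 members, a median fold enrichment of 5.90, 47.6% strong, 41.3% at least 50% masked, 67.2% of tiles in peaks, a median distance of 11293.5 bp and 38.5% in genes. Among strong peaks alone, members numbered 467, 58.5% were masked, 45.4% of tiles were in peaks, the distance was 16255 bp, 33.6% were in genes, and YY1, E-box and AP-1 letters occurred in 25.3%, 4.50% and 1.28%. With GC and CpG over 150 bp to either side of the summit, 2734 peaks qualified, with a median of 7.97, 66.9% strong and 66.1% masked. With a CpG ratio of at least 0.65 and at least 500 bp, 341 qualified. More than 5000 bp from a start, the median was 6.56, 53.7% were strong and 51.8% masked. Under 10% masked, the median was 4.62, 33.3% were strong and the distance was 7295 bp. At least 90% masked were 31.8%, and 47.3% were at least 50% masked once RefSeq starts were also kept 2000 bp away, an alternative added after seeing the data, as were those for fragments and gene lists. Tiles with a summit inside, under 10% masked, of 300 bp and of 1000 bp gave 42.2%, 73.3%, 58.0% and 71.5%. The distance to protein-coding starts was 26489 bp, and 30.4% lay in protein-coding genes. Within 75 bp of the summit, where windows hold fewer letters by construction, the shares were 35.7% for the GC box, 0.407% for NRF1, 0.713% for CTCF, 11.1% for YY1, 3.05% for ETS, 2.85% for the E-box, 0.916% for the cAMP response element, 0.102% for ZBTB33, 0.509% for the octamer and 6.92% for ZFP57. For the other settings the cause was not tested. Depth limits single members, since the intervals of the fragment number are wide at 6 to 20 fragments, and the 2 clones could not be compared.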
